A study of Mus musculus with 2 samples.

Results

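The replication-dependent histone gene clusters were examined in the Klf4 occupancy data as all peaks whose midpoint lay in 1 of 4 windows of mm9 placed over these clusters, 30 of the 7313 peaks of the list. The windows were Hist1 proximal (chromosome 13, 21.7 to 22.2 Mb), Hist1 distal (chromosome 13, 23.45 to 23.95 Mb), Hist2 (chromosome 3, 96 to 96.09 Mb) and Hist3 (chromosome 11, 58.75 to 58.8 Mb). They held 4, 14, 9 and 3 peaks. Klf4 is a zinc-finger transcription factor, and its occupancy was measured by chromatin immunoprecipitation and sequencing (ChIP-seq) in mesenteric arcades, the small vessels that supply the gut, of C57BL/6 mice on a chow diet. The study had 1 library of genotype eYFP+/+ Klf4WT/WT and 1 of genotype eYFP+/+ Klf4delta/delta, which the labels tie to smooth muscle cells (SMC). Each library was made from mixed cells, among them macrophages, epithelial cells and SMC, so no peak belongs to a known cell type. The sources used here do not give the ages of the animals, the promoter that drives the deletion or the number of animals pooled. The single deposited peak list names no genotype, so the genotypes were not compared and dependence of these peaks on Klf4 was not tested.

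Replication-dependent histone genes encode the core histones H2A, H2B, H3 and H4 and the linker histone H1, which package newly made DNA. They are short, lack introns, sit close together in many near-identical copies, and are transcribed mainly in S phase. Their messages end in a conserved stem-loop in place of a poly(A) tail. Klf4 recognises GC-rich sequence with a CACCC core, and is known in smooth muscle as a regulator of differentiation and proliferation.

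The RefSeq gene table used for names, which belongs to GRCm38.p6 and not to mm9, held 70 genes of these groups, of which 67 were protein-coding and 3 were pseudogenes. Hist1 had 56 genes on chromosome 13, Hist2 had 10 on chromosome 3, Hist3 had 3 on chromosome 11 and Hist4 had 1 on chromosome 6. By class there were 6 H1, 20 H2A, 19 H2B, 12 H3 and 13 H4 genes. Genes were assigned to these groups by symbol, and when or in which tissue each is transcribed was not determined. Because the builds differ, no peak was tied to a gene, and which genes of other kinds lie in the windows was not determined. In table order, 29 histone genes ran from H4c8 to H1f1 with only 1 other protein-coding gene among them, which was Hfe, a regulator of iron uptake. Another 19 ran from H2bc13 to H4bc24, and 5 ran from H2ac12 to H2bc11. The 10 Hist2 genes ran from H2ac21 to H2bc18.

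Promoter sequences are shown for 1 gene of each core histone class with the most matches to CACCC in the 300 bases of its table entry, to let the letters of the KLF core be seen in their context. Each is the 250 bases before the annotated start in GRCm38.p6, taken from RefSeq, 5′ to 3′ on the strand of the gene, with matches to CACCC on either strand (CACCC or GGGTG) in capitals. These coordinates cannot be set against the mm9 coordinates of peaks. The genes were chosen for their matches and need not be typical of their class. The stretches are those of the H2A gene H2ac1 (chr13:23934187-23934436, plus strand), the H2B gene H2bc1 (chr13:23934157-23934406, minus strand), the H3 gene H3c15 (chr3:96239128-96239377, minus strand) and the H4 gene H4c3 (chr13:23698459-23698708, minus strand).
H2ac1: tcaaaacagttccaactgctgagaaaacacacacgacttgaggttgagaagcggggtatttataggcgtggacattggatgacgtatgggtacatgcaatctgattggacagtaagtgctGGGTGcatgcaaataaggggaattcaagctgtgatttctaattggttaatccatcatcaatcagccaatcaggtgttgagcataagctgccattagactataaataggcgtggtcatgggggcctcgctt
H2bc1: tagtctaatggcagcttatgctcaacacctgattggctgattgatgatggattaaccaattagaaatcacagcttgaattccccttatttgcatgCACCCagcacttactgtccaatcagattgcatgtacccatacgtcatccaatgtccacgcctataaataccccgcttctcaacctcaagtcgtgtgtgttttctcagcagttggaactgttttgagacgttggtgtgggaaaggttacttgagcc
H3c15: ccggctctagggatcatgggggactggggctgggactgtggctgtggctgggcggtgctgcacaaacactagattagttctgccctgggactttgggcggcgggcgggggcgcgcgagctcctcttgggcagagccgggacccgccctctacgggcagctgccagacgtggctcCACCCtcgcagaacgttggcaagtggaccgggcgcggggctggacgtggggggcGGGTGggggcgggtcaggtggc
H4c3: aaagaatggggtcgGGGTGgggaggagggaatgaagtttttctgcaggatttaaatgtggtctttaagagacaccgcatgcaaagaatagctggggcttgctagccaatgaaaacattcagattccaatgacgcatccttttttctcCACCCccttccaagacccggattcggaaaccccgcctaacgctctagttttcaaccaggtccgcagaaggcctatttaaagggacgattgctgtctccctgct
The stretches of H2ac1 and H2bc1 share 220 bases on opposite strands, since these genes are transcribed away from each other, and they show the same CACCC match. A further match of each lies in the part of the entry that is not printed, and among H2A genes H2ac20 tied with H2ac1 at 2 matches and was passed over by symbol order. H3c15 shows both of its 2 matches, and H4c3 shows 2 of the 3 in its entry.

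The share of promoters with the CACCC letters was lower for histone genes than for all genes, a difference that was not tested. Of the 70 genes, 62 had an entry in the RefSeq promoter table, with 63 promoters of 300 bases (250 before to 50 after the start). CACCC occurred on either strand in 21 of them (33.3%), against 57.5% of all 32851 promoters. It was found in 7 of 18 H2A, 4 of 17 H2B, 5 of 10 H3, 5 of 12 H4 and 0 of 6 H1 promoters. The longer GC-rich pattern CCNCNCCC, where N is any base and which can overlap CACCC, occurred in 24 of 63 (38.1%) against 49.5%. Its share was not even among the classes, with 10 of 12 H4 promoters and 2 of 17 H2B promoters. CCAAT, the letters bound by the factor NF-Y, occurred in all 51 promoters of H1, H2A, H2B and H3 genes and in 3 of 12 of H4 genes, against 37.4% of all promoters. TATAAA, the letters of the TATA box, occurred in 35 of 63 (55.6%) against 13.6%. As for the other letters, both strands and every position were searched, so a match need not be a TATA box of that gene. ATTTGCAT, the octamer bound by Oct factors, occurred in 7 of 17 H2B and 7 of 18 H2A promoters and in none of the H1, H3 and H4 promoters, against 1.74% of all promoters. Copies of a class share sequence, so these counts are not independent. Entries of neighbouring genes can also overlap, as those of H2ac1 and H2bc1 do, and both strands were searched. The same site can then be counted for both H2A and H2B, so these classes are not separate evidence. A match is not a binding site, and whether any of these promoters lay under a peak was not determined.

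Klf4 peaks were dense in the histone windows. The 4 windows together held 30 peaks in 1.14 Mb, or 26.3 per Mb (exact Poisson 95% interval 17.8 to 37.6). Their flanks of 1 Mb on each side, joined where they overlapped, held 64 peaks in 7.25 Mb, or 8.83 per Mb (6.80 to 11.3). The rest of the list had 2.85 peaks per Mb, with each chromosome counted over the span between its outermost peaks. The windows thus exceeded the flanks 2.98-fold (exact 95% interval 1.86 to 4.67) and the rest of the list 9.23-fold (6.22 to 13.2). They held 0.410% of all peaks in 0.0447% of the spans. Peaks covered 2.47% of the bases of the windows, against 0.901% in the flanks and 0.285% over the spans. These intervals cover counting error only, and neighbouring peaks are not independent, so they are too narrow. The windows were also proposed with results of this list known, so the excess is a description of these peaks.

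Peak density differed among the windows, but the intervals of their ratios to their own flanks overlapped. Hist2 had 100 peaks per Mb (45.7 to 189.8), which was 6.45-fold its own flanks (2.70 to 13.9). Hist3 had 60 per Mb (12.4 to 175.3), or 6.00-fold its flanks (1.14 to 20.2), from only 3 peaks. Hist1 distal had 28 per Mb (15.3 to 47.0), or 8-fold its flanks (3.02 to 23.4). Its left flank had 0 peaks per Mb and its right flank 7, so the empty flank raises this ratio. Hist1 proximal had 8 per Mb (2.18 to 20.5), and its ratio to its flanks, 2.67, had an interval that included 1 (0.553 to 11.2). Here the left flank had 6 peaks per Mb and the right flank 0. The ratio of Hist1 proximal to the rest of the list, 2.80, also had an interval that included 1 (0.764 to 7.18). The intervals of the other windows to the rest of the list left out 1. Hist1 distal was 3.50-fold as dense as Hist1 proximal (1.10 to 14.6), although both windows are 500 kb long.

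Against stretches of equal length begun at every placed peak, Hist2 stood out most. At least 9 peaks within 90 kb, the number in Hist2, were reached by 0.0548% of the 7298 stretches, at 2 separate places of the list. Hist2 itself is among these places. At least 14 peaks within 500 kb, as in Hist1 distal, were reached by 2.37% of stretches at 33 places. At least 3 within 50 kb, as in Hist3, were reached by 10%, and at least 4 within 500 kb, as in Hist1 proximal, by 51.5%. By this measure the number of peaks in Hist1 proximal was that of an ordinary stretch beside a peak. Stretches that begin at a peak are richer than stretches begun anywhere, and those near each other overlap. Peaks of the windows were not left out, so each window is among the places that reach its own number. The length and number compared were taken from the window itself, and peaks of close pairs were counted separately.

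**Figure D1:**
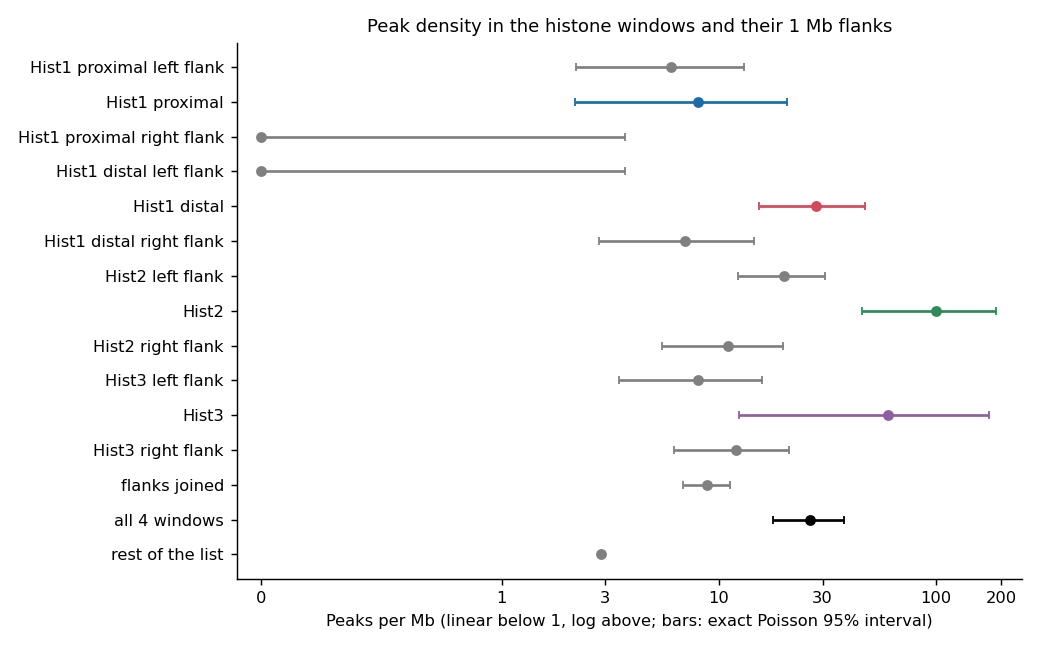
Peaks per Mb (x axis, linear below 1 and logarithmic above) in each window, its left and right flank of 1 Mb, the joined flanks, the 4 windows together and the rest of the list. Points are rates and bars exact Poisson 95% intervals. Hist2 is highest at 100 per Mb, and both flanks between the Hist1 windows are at 0.

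The sequence between the Hist1 windows held no peak. From the last peak of Hist1 proximal to the first of Hist1 distal there were 1422.7 kb without a peak, a distance reached by 5.65% of gaps in the list and ranked 23 of 308 gaps on chromosome 13. The right flank of Hist1 proximal and the left flank of Hist1 distal, which overlap, had 0 peaks in 1 Mb each, which allows a rate of up to 3.69 per Mb. In the order of the gene table, the entries between the histone genes H2bc11 and H4c8 included 36 protein-coding genes and 39 pseudogenes of the Vmn1r family, vomeronasal receptors that serve pheromone detection in sensory neurons. They also included 46 transfer RNA genes. How far these entries reach into the windows was not determined. After the last peak of Hist1 distal, which lay 117.4 kb before the end of its window, 874.0 kb had no peak. With the stretch between the Hist1 windows left out, an alternative chosen after the data were seen, the ratio of windows to flanks was 2.47 (1.54 to 3.86).

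The 9 peaks of Hist2 spanned 77.4 kb, with a median gap of 7.31 kb. The peak at 96000946 to 96001616 opened the group with a score of 211.76, its highest, at a width of 671 bp. The rule placed this peak only 0.945 kb inside the window, so its membership depends on where that edge was set. The widest, 1875 bp, lay at 96023044 to 96024918 with a score of 202.86, and a peak with a score of 74.88 followed at 96024979 to 96025743. A lone peak of 1138 bp and a score of 69.69 lay at 96043204 to 96044341. Beyond it came a pair at 96049197 to 96050490 (score 134.52) and 96050610 to 96051354 (score 97.77). A further pair lay at 96066388 to 96067335 (score 104.77) and 96067419 to 96068133 (score 60.46). The narrowest, 477 bp, closed the group at 96077906 to 96078382 with a score of 61.33. Thus 3 of the 9 scored above the median of the list, 112.02, and 6 of the 9 peaks formed 3 close pairs. The nearest peaks outside lay 34.2 kb before and 140.0 kb after. Of the 31 peaks in its flanks the highest, with a score of 468.48, lay at 96361882 to 96365148.

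Hist1 distal held the highest-scoring peak of all windows. This peak, at 23713174 to 23714689, scored 302.6, rank 258 of 7298 placed peaks, and was also the widest of its window with 1516 bp. The scores that came next in the window were 154.51, at 23515048 to 23515800, and 137.29, which was held by 2 peaks, at 23676675 to 23677642 and at 23830702 to 23831551. The other scores ranged down to 60.08, close to the lowest score of the list (60.01). The closest pair of the window was 67 bp apart, and the longest gap inside it was 87.5 kb. Of its 14 peaks 6 scored above the median of the list.

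A row of 6 closely spaced peaks made up much of Hist1 distal. It ran from 23515048 to 23546208, over 31.2 kb, with gaps of 3.04 to 7.29 kb and scores of 70.29 to 154.51. Rows of at least 6 peaks with every gap under 10 kb numbered 2 in the whole list, and only this row had no gap under 1 kb. These limits, 6 peaks and 10 kb, were set with the values in view. The row was separated from the peaks on either side in the window by 53651 and 76691 bp. Which genes lie under it was not determined.

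**Figure D2:**
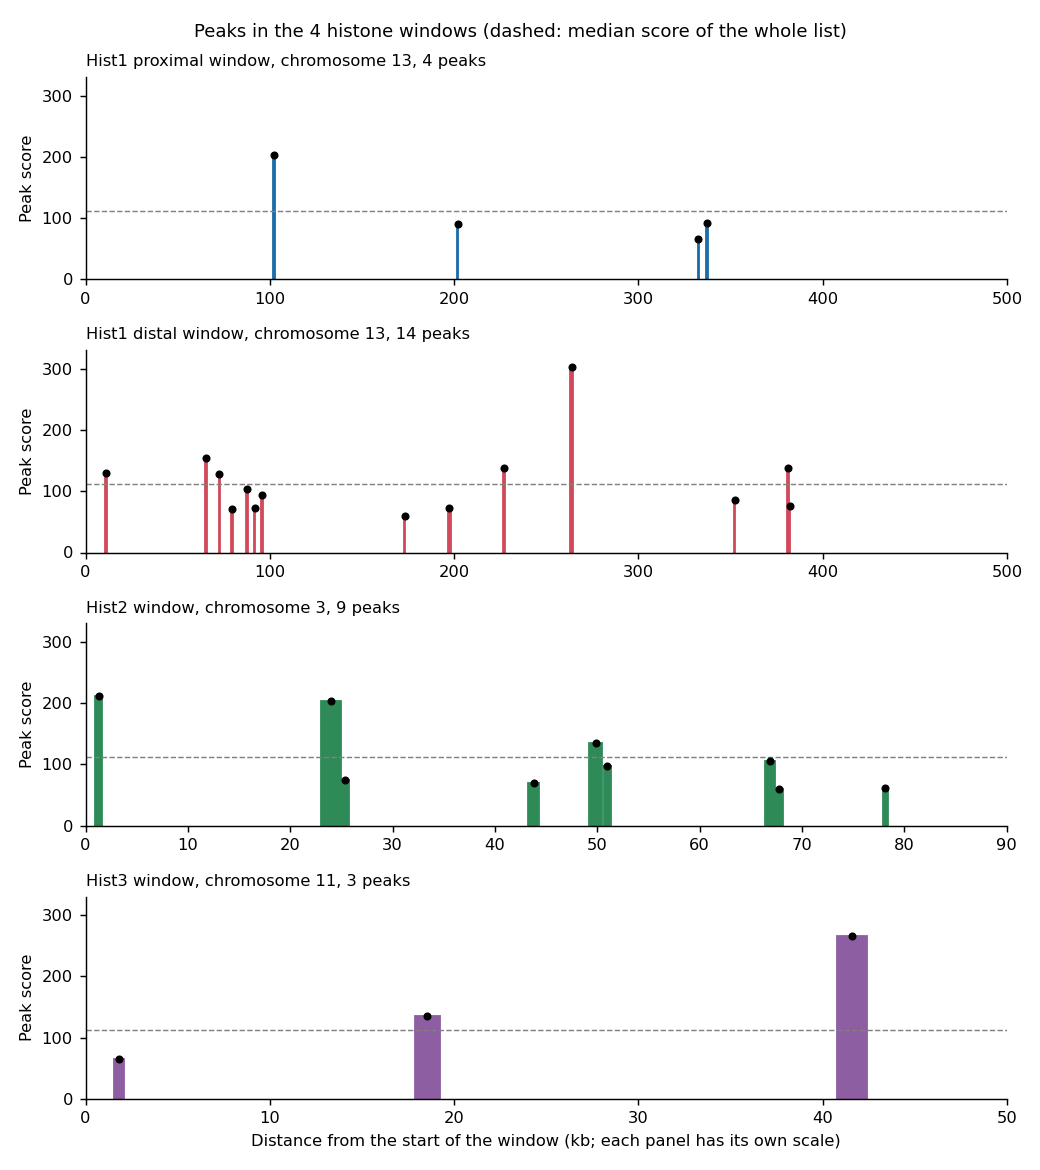
Position (x axis, kb from the start of each window, own scale per panel) and score (y axis) of every peak in the 4 windows. Bars are as wide as the peaks, dots mark their midpoints and the dashed line is the median score of the list, 112.02. Hist2 shows 3 close pairs, and Hist1 distal a row of 6 peaks and the highest score, 302.6.

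Hist1 proximal held 4 peaks, with gaps of 4.01 to 130.1 kb. Its highest score, 203.1, belonged to a 762 bp peak at 21801997 to 21802758. The others lay at 21901442 to 21902316 (score 90.33), at 22032379 to 22032865 (score 66.29) and at 22036878 to 22037703 (score 92.49). Only the highest exceeded the median of the list, and all 4 were narrower than the median width of the list, 913 bp. The last 162.3 kb of the window had no peak. The highest score of its left flank, 367.17, was above that of every peak in the 4 windows.

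Hist3 held 3 peaks, of which the one at the highest coordinate was also the widest and the highest in score. They lay at 58751572 to 58752081 (510 bp, score 65.6), at 58767870 to 58769228 (1359 bp, score 135.65) and at 58790781 to 58792423 (1643 bp, score 266.29). The last of these ranked 408 of 7298 by score and was the second-highest in any window. In the order of the GRCm38.p6 gene table, Trim17, a ubiquitin ligase gene, stands among the 3 Hist3 genes H2bu2, H2bu1-ps and H2aw. The rule placed the first peak 1.57 kb inside the window, and the nearest peak left out lay 33.9 kb before it with a score of 79.15.

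In score and width, no difference between the peaks of the histone windows and the list was larger than the counting error. Their median score was 95.48, with a range of 60.08 to 302.6, against 112.02 for the whole list and 117.0 for the flanks. Of the 30 peaks, 12 (40%, exact binomial 95% interval 22.7 to 59.4%) scored above the median of the list, an interval that includes 50%. Scores in the upper 10% of the list were held by 2 of the 30 (6.67%, 0.818 to 22.1%), against 10% by definition, and these were the peaks with scores of 302.6 and 266.29. The lower 25% of scores took in 11 of the 30 (36.7%, 19.9 to 56.1%). The median width was 878 bp, against 913 bp in the list and 897.5 bp in the flanks, and 14 of the 30 were wider than the median of the list (46.7%, 28.3 to 65.7%). Within the windows, score and width were related with Spearman's rho = 0.52 over 30 peaks, and over the list with 0.55. Peaks share the 1 list, and no test was attached. Beside the ratio of numbers, the ratio of windows to flanks was 2.18 (1.03 to 4.30) for peaks in the upper 50% of scores, and 1.51 (0.446 to 4.13), no longer clear of 1, for the 5 peaks in the upper 25%.

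**Figure D3:**
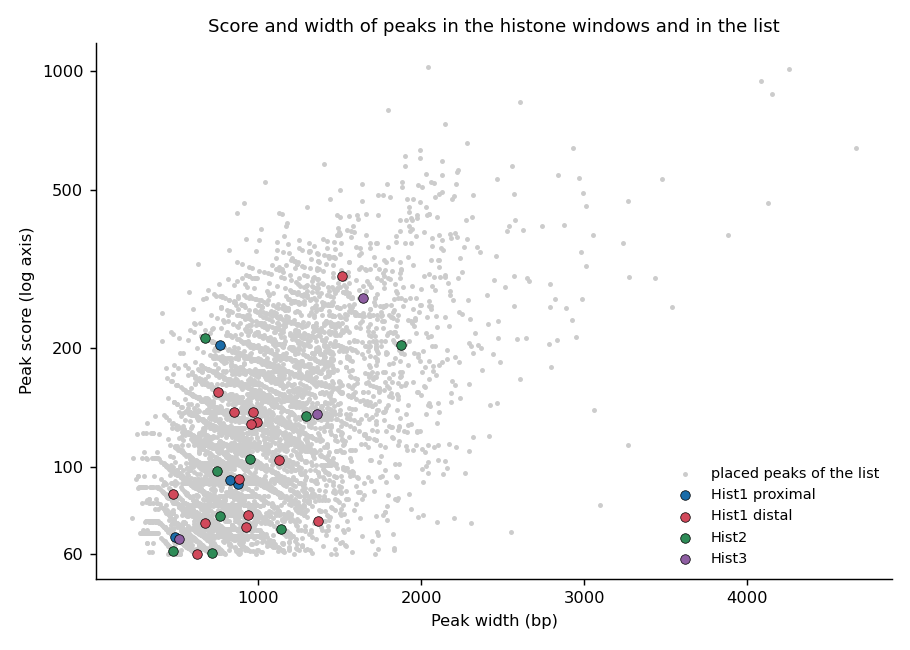
Score (y axis, logarithmic) against width (x axis, bp) for the placed peaks of the list in grey and for the peaks of each window in colour. The 30 coloured points lie within the grey cloud, between scores of 60.08 and 302.6.

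Neighbouring peaks lay closer together in the windows than in the list. The 26 gaps between neighbours of the same window had a median of 15.4 kb, against 94.1 kb for 7278 gaps of the list. A gap inside a window cannot exceed the length of the window, so a shorter median follows in part from the rule. Short gaps also follow in part from the density of the windows given above, and gaps in the flanks were not measured. Gaps under 10 kb were 12 of 26 (46.2%, exact binomial 95% interval 26.6 to 66.6%), against 13.6% of the list. The difference lay mostly in gaps of 2 to 10 kb, which were 8 of 26 (30.8%, 14.3 to 51.8%) against 4.49% of the list. Of these 8 gaps, 5 belonged to the row of 6 peaks in Hist1 distal. Gaps under 1 kb were 4 of 26 (15.4%, 4.36 to 34.9%), an interval that includes the 8.51% of the list.

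The 4 close pairs had gaps of 60, 119 and 83 bp in Hist2 and 67 bp in Hist1 distal. Joined they spanned 2700, 2158, 1746 and 1852 bp in that order. Such short gaps are not particular to these pairs, since 550 of the 619 list gaps under 1 kb were also under 500 bp. In each pair the peak at the lower coordinate scored higher, with 202.86 against 74.88, 134.52 against 97.77 and 104.77 against 60.46 in Hist2, and 137.29 against 75.33 in Hist1 distal. In the list this order was seen in 47.3% of 619 pairs under 1 kb apart, and 4 pairs allow a share from 39.8% upward, which includes the share of the list. Read coverage and gene positions in mm9 were not used here, so the pairs were not related to genes.

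**Figure D4:**
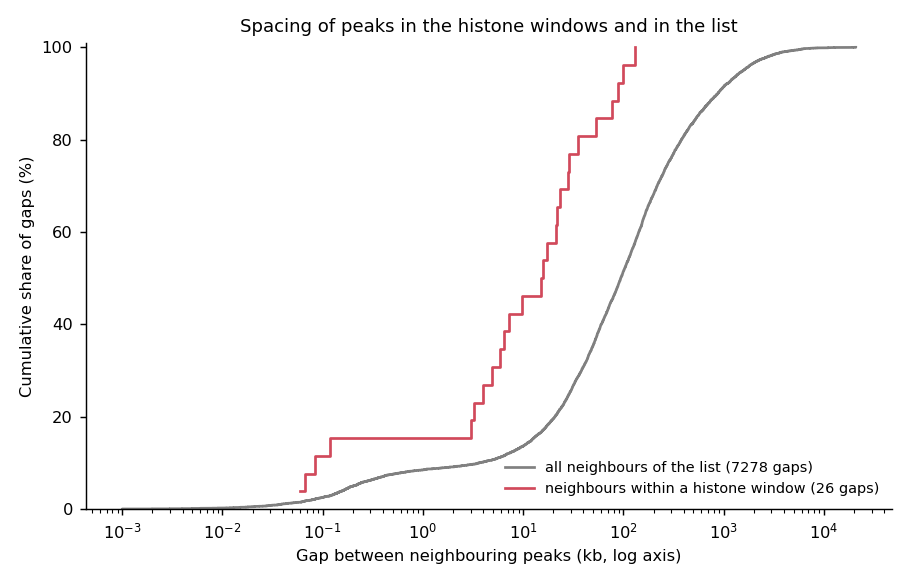
Cumulative share of gaps (y axis, %) by gap length (x axis, kb, logarithmic) for 26 gaps within the histone windows and 7278 gaps of the list. The window curve shows a step of 4 gaps near 0.1 kb and then rises from about 3.04 kb, left of the list curve.

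Of the 30 peaks, 21 belonged to 4 of the 418 groups of at least 3 midpoints within 50 kb found in the list. That is 70% (exact binomial 95% interval 50.6 to 85.3%), against 21.7% of all placed peaks, and membership follows in part from the density given above. The groups were the whole of Hist2 and of Hist3, the row of 6 in Hist1 distal, and 3 peaks at 23802187 to 23832553 in the same window. At most 7 peaks fell within 50 kb in Hist2, a number reached by 3 groups of the list, and 6 in the row of Hist1 distal, reached by 11 groups. None of the 4 peaks of Hist1 proximal belonged to such a group.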

How the data were processed

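Anti-Klf4 ChIP-seq of mesenteric arcades was deposited as 1 peak list for 2 libraries. The score of each peak is the authors' deposited value, and per the file's peak names it comes from MACS. Per the submitters' processing notes, Bowtie, SAMtools and the build mm9 were used. The MACS version and threshold, the read depth, the control library, any pooling, and the treatment of reads that match several places, which bears on near-identical histone genes, are not stated (not given in the sources used here). The score was used only to describe and rank peaks.

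Peak starts were shifted by 1 base to give 1-based coordinates. Peaks were assigned to the windows by midpoint. Rates carry exact Poisson, ratios and shares exact (Clopper-Pearson) 95% intervals, which cover counting error only. A ratio was called only where its interval left out 1, and no p-value was computed. Over the 19 autosomes and chromosome X, the span from first to last peak stood for chromosome length. Every peak of windows with 12 or fewer was listed, and of Hist1 distal the 3 highest, the widest, the closest pair and the longest gap. The row of 6 peaks was added after its values were seen. The windows, lists and motifs were chosen with earlier results of these data known. Gene names and promoters came from RefSeq (GRCm38.p6). Computations were checked on simulated peaks. The tools were matplotlib 3.10.9 for plots and scipy 1.17.1, pandas 2.3.3 and numpy 2.4.6 under Python 3.11.15 for values.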

Additional observations from a re-analysis of the deposited data

How the results depend on the processing

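Of 54 values recomputed under alternatives, 43 stayed on the same side of their threshold or within their margin. Among those kept, membership by any overlap returned every main value unchanged, and gap limits of 500 bp and 2 kb again gave 4. The count of values kept is therefore not a measure of robustness. The excess over the rest of the list held under all 9 of its alternatives. The excess over the flanks held under 11 of 12, between 2.18 and 4.20, but with the upper 25% of scores it was 1.51 with an interval that included 1. The peak number, 30, was 16 without the Hist1 distal window. A filter on score can only lower this number, and it was 12 among the upper 50% of scores and 5 among the upper 25%. With these 2 thresholds the median score was 145.9 and 211.76, a rise fixed by the filter on score. The median width was 979.5 and 1516 bp. Gaps under 1 kb, 4 in number, fell to 0 with either threshold and were 1 without the Hist2 window. Merging peaks under 1 kb apart left 26 regions and a ratio to flanks of 2.90. Leaving out the stretch between the Hist1 windows was the only alternative added after the data were seen. No paired analysis was possible because each genotype had 1 library and the list names neither. As the sources used here give no read depth, a stretch without a peak does not show absent binding.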

Other observations

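Genes that act on histone transcription and histone message processing were searched for the same letters in the RefSeq promoter table of GRCm38.p6. CACCC occurred on neither strand in the promoters of Slbp, which binds the histone stem-loop, of Npat, a coactivator of histone genes, of Lsm11, a subunit of the U7 particle, and of Casp8ap2, a component of histone locus bodies. Of the 3 promoters listed for Zfp473, a zinc-finger protein of histone message processing, the letters occurred in 2. CACCC is held by 57.5% of all promoters. CCNCNCCC, held by 49.5% of all promoters, occurred in those of Slbp, Lsm11 and Casp8ap2 and in 1 of the 3 of Zfp473, but not in that of Npat. CCAAT occurred in the promoters of Slbp, Npat and Casp8ap2 and in 2 of the 3 of Zfp473, but not in that of Lsm11, against 37.4% of all promoters. Whether peaks lay at these genes was not determined.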
